A study of Mus musculus with 3 samples.

Results

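The genes described here are 104 protein-coding genes of mouse macrophages whose RNA was assigned in large part to transcripts annotated as retaining an intron. They were chosen on measured values. A member had a mean level of at least 10 TPM (a transcript level corrected for length and library size) and at least 1 protein-coding transcript, and transcripts of the GENCODE class retained_intron held at least 30% of the TPM summed over its transcripts in each of 3 libraries. Of 55450 annotated genes, 4138 reached that level, 3974 of them had a protein-coding transcript, and 2614 also had a retained_intron transcript, so that 104 of 2614 candidates (3.98%) were members. Symbols beginning with Srsf were left out by the rule, and no Srsf gene met its other criteria. The shares and levels that chose the members are given as a description, without a test.

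The libraries came from primary bone marrow-derived macrophages (BMDM) of C57BL/6J mice treated with Lipid A, the part of bacterial lipopolysaccharide that TLR4 senses, at 100 ng/ml for 30 min. RNA of the cytosolic fraction was depleted of ribosomal RNA, and each library was made from 1 µg. There was 1 group of 3 libraries, with no untreated, later or nuclear sample, and the labels give them as biological replicates 1 to 3 of 1 donor record, without saying whether they were separate cultures. The p-values below therefore measure only the spread between these libraries, which may be technical.

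Libraries held 23403552, 50435201 and 35785896 gene counts in replicates 1, 2 and 3. All 10 macrophage markers examined were at 10 TPM or more, while summed levels of the T and NK cell, B cell, dendritic cell and mast cell markers stayed at or below 1.01 TPM in each library. Neutrophil markers summed to 12.6 to 46.4 TPM, and erythroid and megakaryocyte markers, of which only Pf4 reached 10 TPM, to 146 to 273. The 9 stromal markers summed to 25.01 TPM in replicate 1 and to 0.05 and 0.12 TPM in the others. In bulk RNA, fewer cells of a type and less RNA per cell cannot be told apart. Replicate 2 had the least of the nuclear RNA Malat1, at 1284 CPM (counts scaled to library size with TMM factors) against 3826 and 6469 in replicates 1 and 3. Protein-coding genes held 22.7%, 34.8% and 24.8% of all TPM, so the order of the libraries can differ between TPM and CPM. The part of these differences in the results below was not tested, except where values without a library are given.

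Introns are normally removed in the nucleus before a messenger RNA is exported. An intron that stays in can hold a transcript in the nucleus, or bring a stop codon into the reading frame that exposes an exported transcript to nonsense-mediated decay, and in immune cells intron retention is known as a way to keep genes ready or to lower their output. GENCODE gives the class retained_intron to a transcript thought to hold intronic sequence relative to coding transcripts of its gene. Such a model need not cover a whole intron and carries no coding sequence, and the share assigned to it is an estimate made from reads that mostly fit several models of the gene.

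The models differed greatly in how much intron they contain, and the sequences show this directly. In 17 of the 104 members (16.3%), the leading retained_intron transcript (the one with the highest mean TPM) spanned a complete intron of a protein-coding transcript. The introns below are the ones that 6 of these transcripts keep, read 5′ to 3′ from the GENCODE M21 transcript sequences on the mouse build mm10. Capitals mark the first and last letters of the intron, the GT of the 5′ splice site and the AG of the 3′ splice site.
Cd83-202, chr13:43785251-43785345, plus strand: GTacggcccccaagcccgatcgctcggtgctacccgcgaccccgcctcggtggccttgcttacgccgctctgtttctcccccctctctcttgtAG
Prelid1-202, chr13:55324445-55324526, plus strand: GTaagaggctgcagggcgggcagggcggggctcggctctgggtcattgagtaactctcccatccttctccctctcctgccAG
Tap2-202, chr17:34212068-34212229, plus strand: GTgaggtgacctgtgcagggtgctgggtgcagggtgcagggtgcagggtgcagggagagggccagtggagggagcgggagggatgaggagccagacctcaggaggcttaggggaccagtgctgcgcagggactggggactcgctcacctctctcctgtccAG
Rps20-201, chr4:3835292-3835483, minus strand: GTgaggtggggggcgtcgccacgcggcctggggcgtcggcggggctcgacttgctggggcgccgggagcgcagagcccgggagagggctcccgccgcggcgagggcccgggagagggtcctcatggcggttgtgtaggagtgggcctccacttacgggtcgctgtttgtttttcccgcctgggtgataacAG
Plekhj1-206, chr10:80797840-80797909, minus strand: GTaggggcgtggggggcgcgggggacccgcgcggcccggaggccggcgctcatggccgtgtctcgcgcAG
Aup1-205, chr6:83056879-83056977, plus strand: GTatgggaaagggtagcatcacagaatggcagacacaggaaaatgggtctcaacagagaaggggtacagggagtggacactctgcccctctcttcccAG
All are introns between coding exons. In Cd83 it was intron 1 of 4 and 95 bases long, in Tap2 intron 6 of 11 and 162 bases, and in Rps20 intron 1 of 3 and 192 bases. Read on from the exon before it in the annotated frame, the Cd83 intron reached a stop codon at its last base, the Tap2 intron at base 9 and the Rps20 intron at base 186. The introns of Prelid1, Plekhj1 and Aup1 held no stop codon in that frame, and the Aup1 intron, at 99 bases, is also a multiple of the codon length.

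In 85 members the leading transcript held only a piece of an intron or sequence beyond the coding gene model, and in 2, Aif1 and Ube2m, it had no base outside protein-coding exons. The next sequences come from 5 of the 85. Capitals are bases outside every protein-coding exon of the gene, whose coordinates are given, and lower case letters are adjoining exon bases.
H2-K1-215, chr17:33996655-33996674, minus strand: TTTGTTTTGTTTTACCCTAGgctcccagac
Lrp1-208, chr10:127539563-127539597, minus strand: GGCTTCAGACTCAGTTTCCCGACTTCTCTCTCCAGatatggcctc
Tbcb-202, chr7:30227036-30227061, minus strand: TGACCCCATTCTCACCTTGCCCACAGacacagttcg
Sri-201, chr5:8059342-8059352, plus strand: TTTTTTTAAAGgacggacaaa
Samhd1-210, chr2:157101694-157101720, minus strand: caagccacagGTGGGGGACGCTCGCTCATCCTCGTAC
The first 4 lie at the 5′ end of their transcripts, and their capitals end in AG, the letters of a 3′ splice site. The stretch of Samhd1 lies at the 3′ end and starts with GT. These models thus start or stop a short way into an intron, and the rest of each transcript is exon sequence that protein-coding transcripts share. Of the 85, the outside bases reached only the 5′ end in 62, only the 3′ end in 12, both ends in 10 and neither in 1 (Timm17a). Among 72 stretches at a 5′ end, 68 (94.4%) ended in AG, as did 88.5% of 965 such stretches over all candidates. At a 3′ end, 14 of 22 stretches (63.6%) began with GT, beside 93.3% of 1143 over all candidates. A match of these letters describes the annotation and does not show that the site was used.

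The rule did not use this structure itself. It used shares by TPM, which give short transcripts more weight than their reads have. The structure of the leading transcripts is therefore not independent of the choice of members. The median number of bases outside protein-coding exons was 78 in members, or 8.43% of the transcript's length, and 342 or 40.7% over all candidates. In 72 members it was 100 bases or fewer, and in 33 under 50, whereas 4 (Tmed10, Gm21188, Ncapg2 and Mfsd4a) had 50% or more of the transcript outside exons. A complete intron was present in the leading transcript of 763 candidates (29.2%). Leading transcripts of members were short, at a median of 737.5 bases against 2687 for the leading protein-coding transcript of the same genes, and 94 of the 104 were the shorter of the pair. The corresponding medians over all candidates were 861 and 2548.5 bases. Of the members, 72 leading transcripts (69.2%) overlapped the last but not the first exon of the leading protein-coding transcript, compared with 641 candidates (24.5%). The first but not the last exon was overlapped in 9 members (8.65%) and in 882 candidates (33.7%). These are medians and counts over annotated models and carry no test.

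**Figure D1:**
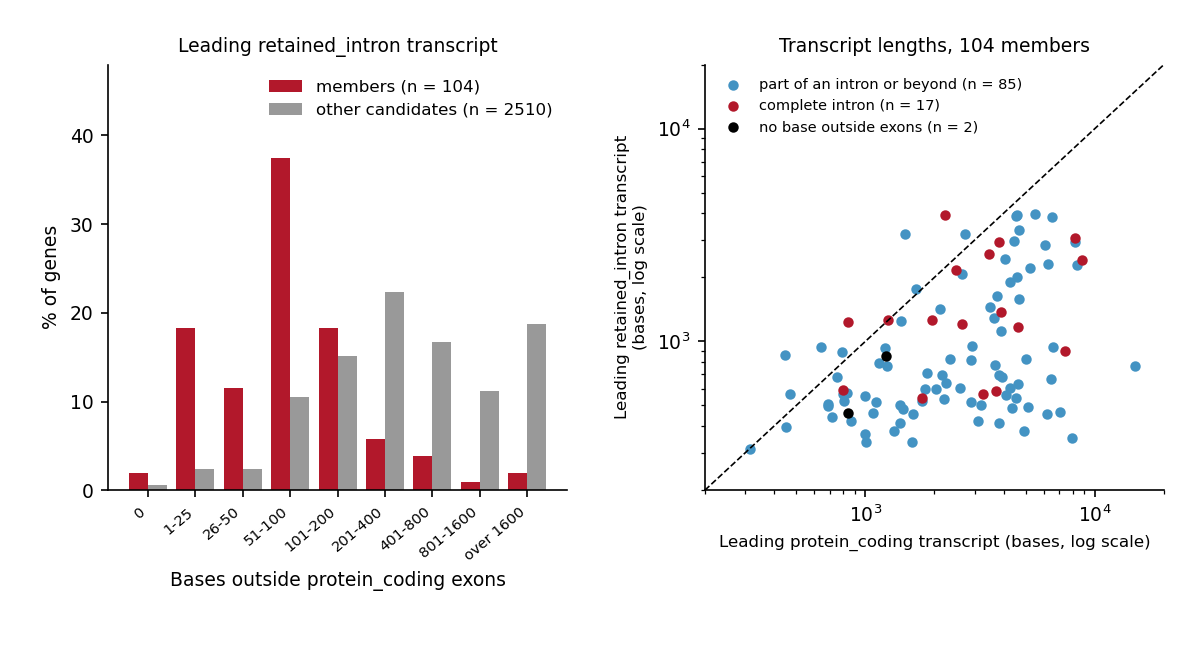
Left, number of bases of the leading retained_intron transcript that lie outside protein-coding exons, as the percentage of genes in each range, for the 104 members and the 2510 other candidates. Right, length of the leading retained_intron transcript against that of the leading protein-coding transcript of each member, both in bases on log scales, with the dashed line at equal length. Members have a median of 78 outside bases, and 94 of the 104 points lie below the line.

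**Figure D2:**
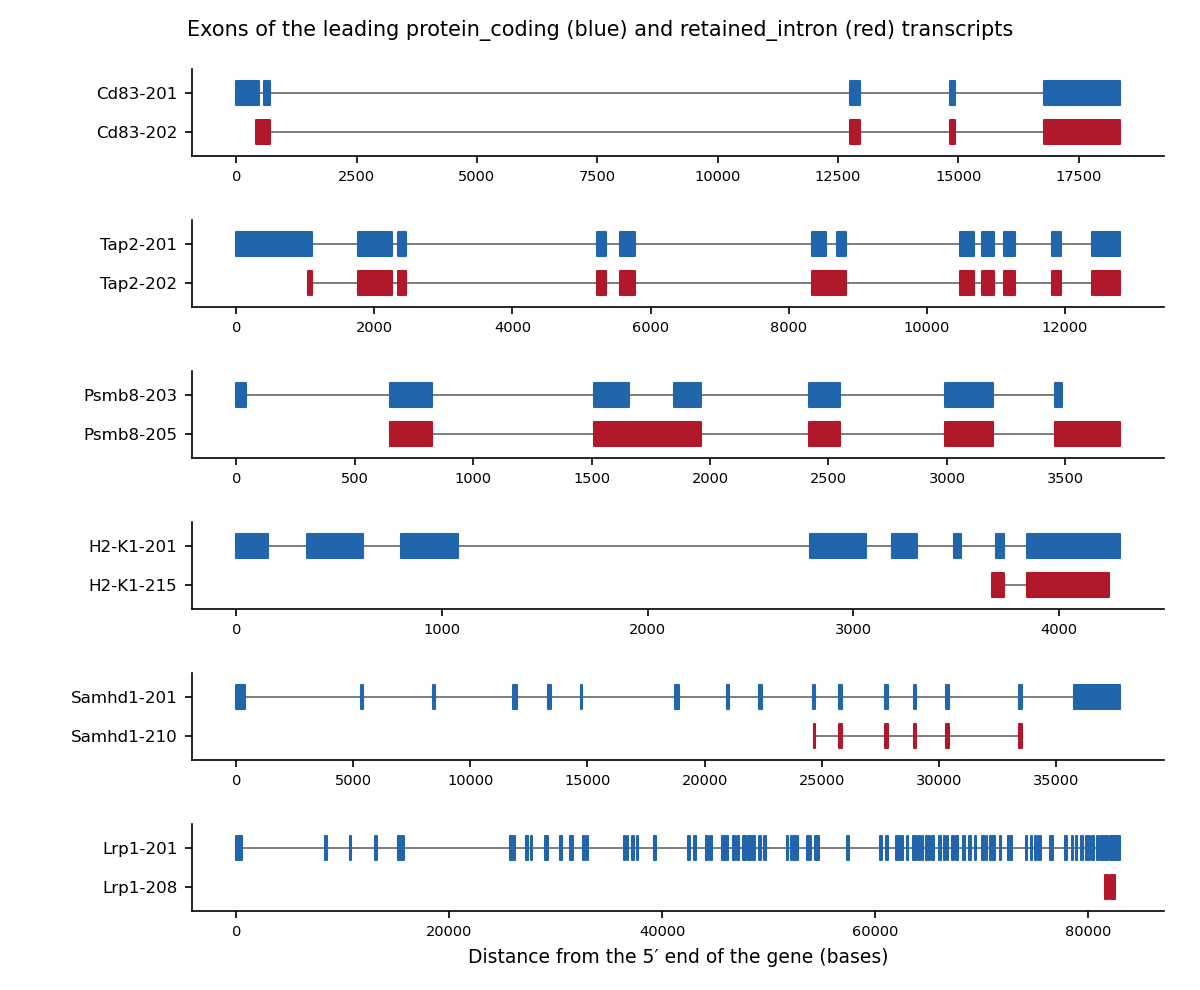
Exons (boxes) and introns (lines) of the leading protein-coding (blue) and retained_intron (red) transcripts of 6 members, by distance in bases from the 5′ end of the gene. Cd83-202, Tap2-202 and Psmb8-205 join exons across a complete intron, whereas H2-K1-215, Samhd1-210 and Lrp1-208 cover part of the gene and extend 20, 27 and 35 bases beyond its exons.

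The label of the set therefore holds as an annotation class and, for most members, not as whole introns. When only retained_intron transcripts that span a complete intron were counted, a choice made after the data were seen, 17 genes kept 30% or more in each library. All had to be members, since these transcripts are a part of those that the rule summed. By mean share of such transcripts, they were Rps20 (92.2%), Tmem132a (87.5%), Prelid1 (82.0%), Tap2 (78.1%), Ncl (78.0%), Cd83 (77.2%), Pirb (68.2%), Sugt1 (53.4%), Psmb8 (50.6%), Fxyd5 (50.2%), Tbc1d17 (49.98%), Mtch1 (44.8%), Samm50 (44.7%), Tmem214 (39.2%), Aup1 (39.2%), Plekhj1 (37.3%) and Trim28 (37.2%). An exon of another protein-coding transcript enters each intron kept in the leading transcripts of Fxyd5 and Mtch1, and 1 of the 2 kept in that of Tmem132a. Reads over the introns themselves were not analysed here.

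The 21 introns in these 17 leading transcripts had a median length of 190 bases (range 70 to 492) and a median GC content of 57.3%. All 21 began with GT and ended with AG, 18 lay between coding exons and 3, which share a 5′ splice site in Mtch1, in a 3′ UTR. Of the 18, 15 (83.3%) brought an in-frame stop codon, compared with 89.0% of 2675 coding introns held by any retained_intron transcript of the candidates. Introns held whole by any retained_intron transcript numbered 161 in 60 members, with a median of 172 bases, and 2964 over the candidates, with a median of 256. All introns of protein-coding transcripts had medians of 914 bases in members (n = 1527) and 1229 in candidates (n = 39054), so the introns annotated as retained were short in both.

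Mean shares of the 104 members ran from 31.6% (Ube2m) to 97.98% (Slc27a1), with a median of 49.3% and quartiles of 39.9% and 62.5%. The median over all candidates was 1.34%. In 48 members the mean share was 50% or more, in 16 it was 75% or more, and in 4, Slc27a1, Taf10, Mrpl57 and Rps20, it exceeded 90%. Gene levels ran from 10.1 TPM (Comtd1) to 766 (H2-K1) with a median of 25.2, and the median over the other candidates was 21.2. Just inside the threshold lay Mon2 (smallest share 30.1%), Usf1 (30.2%) and Ube2m (30.3%). Just outside lay Plod3 (29.97%), Trf (29.8%, at a gene level of 295 TPM) and Dhrs1 (29.7%). Another 54 candidates reached 30% in exactly 2 libraries and 56 in exactly 1.

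**Figure D3:**
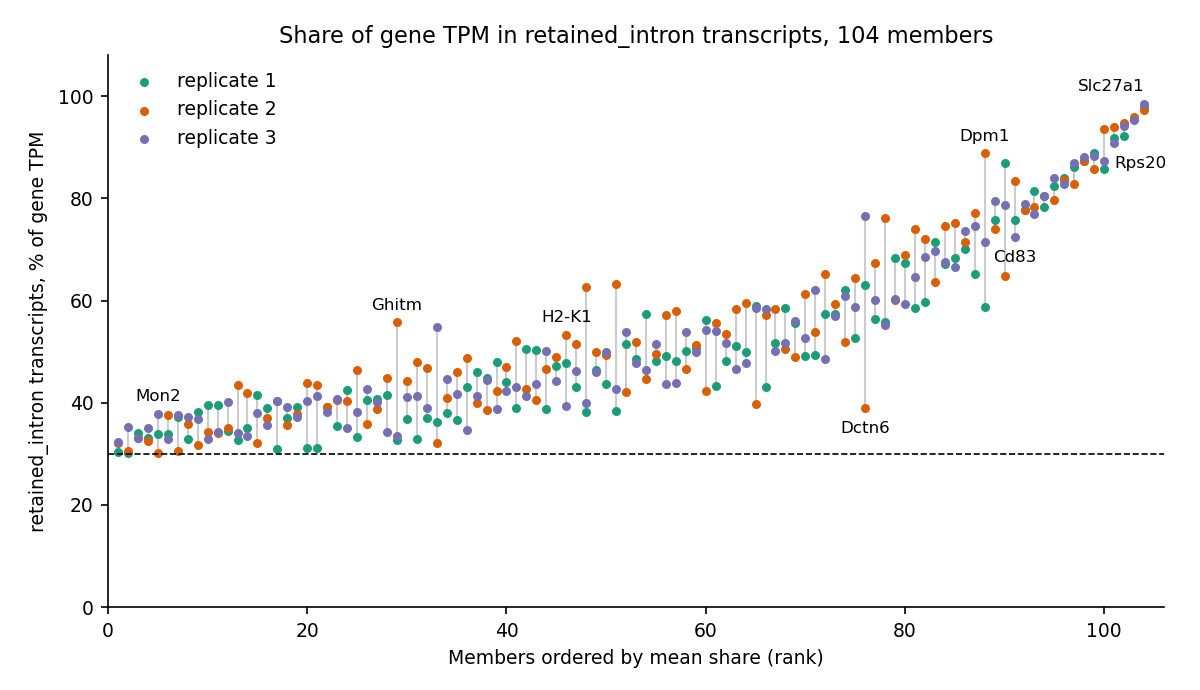
Share of gene TPM held by retained_intron transcripts (y axis, %) in each of the 3 libraries for the 104 members, ordered by mean share (x axis, rank). Points are single libraries, grey lines join the lowest and highest, and the dashed line marks the 30% of the rule. Dpm1, Dctn6 and Ghitm span more than 20 points, while Slc27a1 and Rps20 vary by a few points.

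A share by TPM gives a short transcript more weight than its reads have. Measured by expected counts, the authors' estimate of reads per transcript, the median share of members was 27.5%, lower than by TPM in 96 members and higher in 8. Of the 104, 40 held 30% or more of the counts in each library, and 15 had under 10%. Among the 17 members with a complete intron, the median was 53.4% by TPM and 59.2% by counts. The higher median does not mean that most of the 17 rose. Only 8 of all 104 members were higher by counts, so most of the 17 were lower. Among the 85 with a piece, the medians were 47.5% and 24.2%. The second set of transcript tables, another estimate from the same reads, gave a median share by TPM of 45.7% and 72 members at 30% or more in each library. There, 70 members lay within 10 points of the first estimate, 27 were lower by more and 7 higher. The 5 members that differed most were Pi4ka (47.5% and 15.7% in the first and second tables), Cerk (44.8% and 13.1%), Capns1 (53.6% and 23.5%), Npc1 (34.8% and 5.49%) and Slc27a1 (97.98% and 70.3%). By complete-intron transcripts alone, 15 members held 30% or more in each library by counts and 13 by TPM in the second tables. Aup1, for example, held 17.3% by counts and 21.8% in the second tables.

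**Figure D4:**
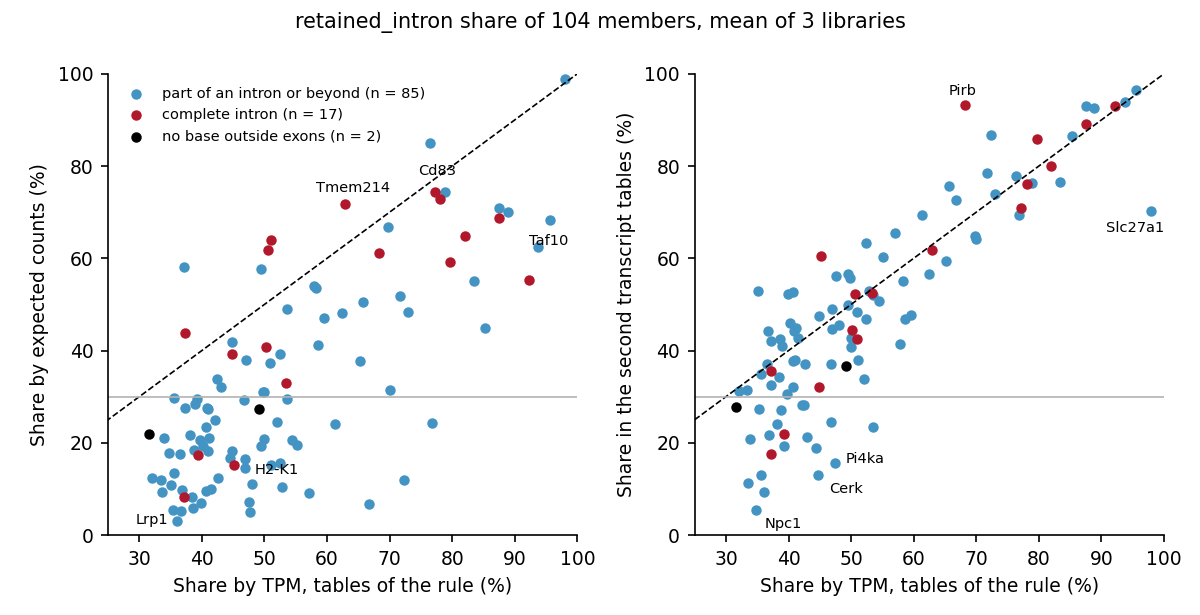
Share of retained_intron transcripts by TPM in the tables of the rule (x axes, %) against the share by expected counts in the same tables (left) and the share by TPM in the second transcript tables (right), as means of 3 libraries, coloured by what the leading transcript contains. Dashed lines mark equal values and grey lines 30%. On the left 96 of 104 points lie below the dashed line, with Lrp1 at 2.94% and Cd83 at 74.5% by counts.

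Members are described by role below. The roles were assigned after the values were known, so a role's range is a description. Of the 104, 83 fall under 1 of 10 roles, and the other 21 are given at the end.

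The first role joins genes of antigen presentation and the immune cell surface with Samhd1, Rgs1 and Aif1, other genes of immune cells. Mean shares of its 9 genes ran from 36.5% to 78.1%, and 4 leading transcripts held a complete intron. Cd83, a surface protein of activated antigen-presenting cells that is rapidly induced by TLR ligands (chr13:43784775-43803132, plus strand), had gene levels of 168, 117 and 131 TPM in replicates 1, 2 and 3. Its retained_intron share was 75.7%, 83.4% and 72.5% (77.2% ± 5.60, SD, n = 3), and 74.5% by counts. Replicate 2, with the lowest level, had the highest share. Cd83-202 starts 410 bases downstream of the protein-coding Cd83-201, keeps the intron of 95 bases printed above and shares the exons that follow. Tap2, a subunit of the transporter that carries peptides into the endoplasmic reticulum (chr17:34203527-34216321, plus strand), was at 10.9, 10.2 and 12.4 TPM. Its shares were 77.6%, 77.8% and 79.0%, and 76.1% in the second tables. Psmb8, a catalytic subunit of the immunoproteasome and the neighbour of Tap2 (chr17:34197721-34201454, plus strand), was at 49.0, 58.9 and 50.2 TPM with shares of 50.7%, 51.4% and 49.9%. For both, the 3 libraries lay within 1.51 points of each other, and for Psmb8 the share by counts was higher, at 61.8%. Exons of the antisense gene Gm20496 overlap both leading transcripts, and whether counting used the strand is not given in the sources used here.

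H2-K1, a classical MHC class I heavy chain (chr17:33996017-34000347, minus strand), was the highest member by mean TPM, at 747, 869 and 682. By CPM it was at 1256, 912 and 1166, so replicate 2 was the highest by TPM and the lowest by CPM. Its shares of 47.8%, 53.3% and 39.4% rest on H2-K1-215, a model of 457 bases with 20 bases outside exons. The share was 14.6% by counts, and 37.0% by TPM in the other transcript tables. MHC class I genes share long near-identical stretches, so its reads may be divided with other class I genes. Pirb, an inhibitory receptor that binds MHC class I, was at 76.0, 134 and 86.0 TPM with shares of 71.4%, 63.6% and 69.7%. The second tables gave 93.2%, the largest difference upward among the members, and its reads may also be divided with the paired receptors of its family. Samhd1, which hydrolyses deoxynucleotides and restricts viruses, was at 102, 187 and 107 TPM with shares of 31.1%, 43.9% and 40.3% but only 8.22% by counts. Rgs1, a brake on G protein signalling from chemokine receptors, had 36.5% in retained_intron transcripts, 57.8% in transcripts annotated for nonsense-mediated decay and 5.63% in protein-coding ones. Aif1 (IBA1), an actin-binding protein used as a macrophage and microglia marker, and Il11ra1, the IL-11 receptor chain, had shares of 49.2% and 70.0%.

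The 6 genes of the ribosome and nucleolus had the highest median share of the roles under each measure, 83.6% by TPM, 57.2% by counts and 89.4% in the second tables. Rps20, a protein of the small ribosomal subunit (chr4:3831334-3835665, minus strand), was at 193, 294 and 167 TPM. By CPM it was at 242, 218 and 202, so replicate 2 was the highest by TPM and not by CPM. Its shares were 91.8%, 94.0% and 90.9%, carried by the 582 bases of Rps20-201, and 55.2% by counts. The leading protein-coding model beside it, Rps20-203, is 3706 bases long. Rps16, also of the small subunit, was at 221, 345 and 190 TPM with shares of 87.3%, 87.2% and 88.1%, and its leading transcript has 68 outside bases and no complete intron. Rpl15, of the large subunit, was at 180, 413 and 157 TPM with lower shares of 43.1%, 48.8% and 34.6%. All 3 have processed pseudogenes, so their levels and shares are uncertain. Mrpl57, of the mitochondrial ribosome, was at 8.68, 18.3 and 11.2 TPM with shares of 92.3%, 94.7% and 94.2%. Ncl, the major nucleolar protein and a host of small nucleolar RNAs, was at 33.7, 71.3 and 45.8 TPM with shares of 78.3%, 80.4% and 80.5%. Ncl-202 keeps introns 9 and 10 of 13 of the gene, neither of which holds a small RNA in the annotation. Nol7, a nucleolar protein, had 40.9%.

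The 14 genes of transcription, chromatin and RNA had mean shares of 32.0% to 95.6%, and only 1, Trim28, led with a complete intron. Taf10, a subunit of TFIID and SAGA (chr7:105739393-105744361, minus strand), was at 35.0, 47.0 and 38.3 TPM with shares of 95.5%, 95.9% and 95.4%. The share by counts was 68.2%, from a model of 601 bases with 98 outside exons, and exons of Ilk on the other strand overlap it. Trim28, the corepressor of KRAB zinc finger proteins, had shares of 41.5%, 32.0% and 38.0% from a model of 565 bases, but 8.28% by counts and 17.5% in the second tables. Sart1, a tri-snRNP protein, had 47.6% by TPM and 4.92% by counts. Safb and Zfp638, proteins linked to transcription and splicing, had 33.6% and 35.3% by TPM and 9.36% and 5.39% by counts. Rfc2, a subunit of the clamp loader of DNA replication, and Ncapg2, of condensin II, had 85.3% and 78.9%. In Ncapg2 the 2207 outside bases made up 65.8% of the model, and the share by counts was 74.3%. Rnaseh2a, the catalytic subunit of RNase H2, varied most in this role, with 38.5%, 63.2% and 42.6%. Usf1, Ccdc12, Tsn, Elp5 and Zc3h7a lay between 32.0% and 72.3%.

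Among 8 genes of ubiquitin and ubiquitin-like pathways, Usp15, a deubiquitinase, stood highest with 85.8%, 93.5% and 87.4%, and 70.1% by counts. Its leading transcript Usp15-208 has 1587 bases, of which 16 lie outside protein-coding exons. Ufm1, the modifier of ufmylation, had 59.6%, 72.0% and 68.6% by TPM but 6.71% by counts. Aup1, of degradation at the endoplasmic reticulum and lipid droplets, had 33.3%, 46.5% and 38.2%, with a further 45.3% in transcripts annotated for nonsense-mediated decay. Sugt1, a cochaperone of HSP90, had 51.7%, 58.4% and 50.1% from a model with the complete intron 1 of 12. Uba7, the activating enzyme of ISG15, had 51.1%, the SUMO protease Senp6 38.8% and the NEDD8 enzyme Ube2m 31.6%.

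The 10 mitochondrial genes had mean shares of 40.7% to 82.0%, and 3 led with a complete intron. Prelid1, a carrier of phosphatidic acid between the mitochondrial membranes (chr13:55320500-55325272, plus strand), was at 44.4, 85.5 and 58.3 TPM with shares of 82.3%, 79.7% and 84.0%. By counts the share was 64.9%, and exons of Mxd3 on the other strand overlap Prelid1-202. Samm50, of the outer membrane sorting machinery, had 38.8%, 46.6% and 50.2% by TPM and 15.2% by counts, and Mtch1, an outer membrane protein, 50.6%, 42.6% and 41.2%. Timm17a, of the inner membrane import channel, had 86.9%, 64.8% and 78.7%, lowest in replicate 2. Ghitm went the other way, with 32.7%, 55.7% and 33.6%. Atp5j, of ATP synthase, had 55.9%, 76.1% and 55.3%. Ndufc1 and Ndufab1, of complex I, Mtx1, of the outer membrane, and the acyl-CoA dehydrogenase Acadsb lay between 41.0% and 65.7%.

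The 15 genes of membrane traffic, endocytosis and lysosomes had a median share of 40.7% by TPM, 21.02% by counts and 41.0% in the second tables. Lrp1, a large endocytic receptor of macrophages (chr10:127538161-127621148, minus strand), was at 124, 138 and 199 TPM, highest in replicate 3. Its shares of 39.7%, 34.1% and 34.4% came from Lrp1-208, with 763 bases beside the 14888 of the full-length messenger, and the share by counts was 2.94%. Npc1, which exports cholesterol from lysosomes, had 33.8%, 37.7% and 32.9% in the first tables and 4.99%, 8.52% and 2.95% in the second. Becn1, of autophagy initiation, had 54.4% from a model with 5 outside bases. Tmed10, a cargo receptor of early secretion, held 37.2% by TPM and 58.2% by counts from a model of 3181 bases. Tbc1d17, a Rab GTPase activating protein, had 43.2%, 55.6% and 54.1%, and Rab8a had 57.4%, 65.3% and 48.6%. Trappc4, Glmp, Dram2, Atp6v1d, Mon2, Tbc1d4, Tbc1d15 and Fgd2 lay between 33.9% and 69.7%.

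Slc27a1, a fatty acid transporter (chr8:71568882-71587302, plus strand), had the highest share of the set, at 98.1%, 97.3% and 98.5%, with gene levels of 16.6, 18.7 and 21.7 TPM. Its counts gave 98.8%, while the second tables gave 77.1%, 64.2% and 69.5%. The other genes of lipid and phosphoinositide metabolism, Cerk, Pi4ka and Pnpla7, had 44.8%, 47.5% and 46.8% in the first tables and 13.1%, 15.7% and 24.4% in the second. Of the cytoskeleton, Vim (vimentin) was at 351, 609 and 470 TPM with shares of 44.8%, 38.6% and 44.4%, and 12.3% by counts. Dctn6, of dynactin, had the widest range of any member, with 63.1%, 39.0% and 76.6%. Myl12b, Tbcb and Cep250 had 41.5%, 53.6% and 83.5%. Signalling genes were Gnb2, Wnk1, Prkcb, Ctnnb1, Ppp1r14b and Capns1, with 38.1% to 53.6%. Chaperones and translation factors were Hspa4, Cdc37, Pdcl3, Cdc123, Eif2b2 and Dhps, with 33.4% to 58.2%.

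The other 21 members had shares of 35.1% to 87.5%. Tmem132a, a transmembrane protein, was at 47.2, 60.5 and 53.2 TPM with shares of 88.8%, 85.6% and 88.2%. Fxyd5 (dysadherin), a modulator of the sodium pump, was at 169, 281 and 129 TPM with shares of 50.2%, 46.6% and 53.8%. Dpm1, of dolichol phosphate mannose synthase, was at 5.49, 29.6 and 6.51 TPM with shares of 58.7%, 88.8% and 71.4%, so both its level and its share were highest in replicate 2. Its mean reached 10 TPM through replicate 2 alone. By CPM it was at 7.09, 12.7 and 7.30, and the share by counts was 48.4%. Level and share rest on the same transcript TPM values, so they are not separate observations. Ppdpf had 38.3%, 62.7% and 39.97%. For Dpm1 and Ppdpf the posterior spread of the leading transcript's count in replicate 1 was 39.2% and 30.3% of the count, compared with a median of 4.83% over members.

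None of the genes in 9 fixed lists for splicing, RNA handling and the early TLR4 response was a member, where 3.98% of all candidates were. The lists were not complete, and the members Sart1, Safb, Zfp638 and Cd83 described above stand in none of them. The rule itself barred Srsf genes and genes without a protein-coding transcript. The CLK kinases phosphorylate splicing factors, and their genes are known for regulated intron retention. The 4 candidates of the kinase list, Clk1, Clk3, Srpk1 and Dyrk1a, had a median share of 23.7%, the highest being Clk3 with 20.8%, 41.0% and 25.2%. Candidate spliceosome genes numbered 39 with a median of 4.37%, led by Snrpa (46.8%, 27.0% and 34.8%). The 20 candidates among hnRNP genes had a median of 1.40%, with Hnrnpll at 41.8%, 11.9% and 39.4%. The 7 Srsf candidates had a median of 5.53%, with Srsf11 at 29.3%, 24.3% and 44.9%. Of the early TLR4 response, 41 of 46 genes reached 10 TPM and 15 were candidates, with a median of 3.74% and a highest share of 10.3% (Tnfaip3). The lists for mRNA export and RNA methylation had 8 and 3 candidates, with Ythdc1 at 38.9%, 28.1% and 24.7%. Thoc1 of the export list, below the level of the rule at 5.29 TPM, had 47.0%, 59.2% and 51.0%. The lists for nonsense-mediated decay and for nuclear non-coding RNAs had no candidates.

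Over the 2522 candidates with any retained_intron signal, the share was lowest in replicate 2 in 64.3% and highest in replicate 3 in 55.2%. That is also the order of Malat1. Members did not show this order: replicate 2 gave the lowest share in 31 (29.8%) and the highest in 48 (46.2%). Their median shares, in the order of the replicates, were 48.2%, 49.7% and 47.2%. When only transcripts with a complete intron were counted, 36 of the 59 members with a value above 0 were lowest in replicate 2. Of the same 59, 37 were highest in replicate 3, and the candidate numbers were 858 and 723 of 1219. Most of these shares were small, with a median of 0.21% over all members. The 17 members led by a complete intron did not show the order. By all their retained_intron transcripts, 7 of the 17 were lowest in replicate 2 and 6 highest in replicate 3. Since the rule asked for 30% in each library, members could not fall freely in any of them. The part of nuclear RNA in these shares was not tested.

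**Figure D5:**
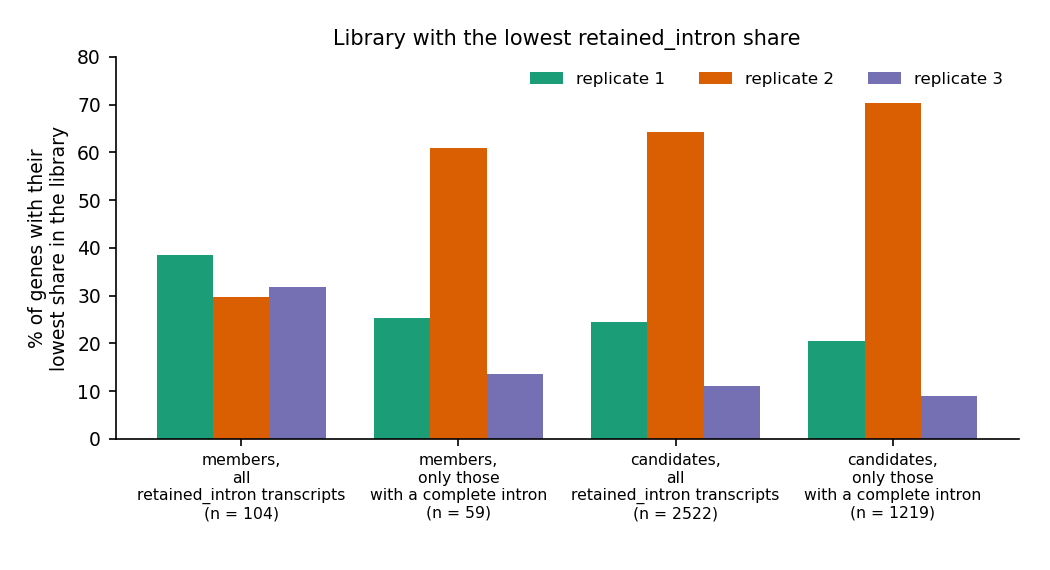
Percentage of genes (y axis) whose retained_intron share was lowest in each library, for members and candidates, counting all retained_intron transcripts or only those with a complete intron. Replicate 2 is the lowest in 64.3% of candidates and in 29.8% of members. When only transcripts with a complete intron are counted, it is the lowest in 61.0% of the 59 members with a value above 0, most of them small.

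Shares of 1 member ranged over the libraries by a median of 7.94 points. The range was 5 points or less in 30 members, over 10 in 38 and over 20 in 8. The rule used the mean level of a gene but not its spread between libraries. Gene counts were tested for variation beyond Poisson sampling with a chi-square index of dispersion, adjusted by Benjamini-Hochberg over 13237 genes. Of all genes tested 67.9% passed, of protein-coding genes at 10 TPM or more 89.9%, and of the members 91 of 104, close to the share among genes of that level. Without replicate 2, 54 members and 4374 of the 13093 genes tested passed. Those genes reach down to a mean count of 10, and the share among protein-coding genes at 10 TPM or more is not given for this setting. Whether members differ from genes of their level without replicate 2 is thus not shown. The median biological coefficient of variation, from tagwise dispersions of edgeR, was 12.9% in members and 12.3% in protein-coding genes at 10 TPM or more. The most variable members were Dpm1 (7.09, 12.7 and 7.30 CPM, coefficient 27.1%, adjusted p = 3.3e-18), Cd83 (687, 324 and 491 CPM, 26.1%), Lrp1 (1716, 1214 and 2453 CPM, 25.04%), Comtd1 (11.6, 7.83 and 13.6 CPM, 24.6%) and Tap2 (56.1, 36.1 and 56.5 CPM, 19.5%). Of these 5, Dpm1 alone was highest in replicate 2, and the other 4 were lowest there. By CPM, 45 members (43.3%) and 51.3% of protein-coding genes at that level were highest in replicate 2.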

How the data were processed

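For each of 3 libraries the authors deposited a gene table and 2 transcript tables on mm10 with GENCODE M21, as the readme files beside them say. Which aligner and quantifiers made them, and whether strand was used, is not given in the sources used here. Expected counts deposited by the authors are estimated reads, with reads that fit several transcripts shared out. The deposited TPM values correct them for effective transcript length and scale every library to the same total, so short models gain weight. The deposited percent column (each transcript's part of its gene's TPM) was read as a check of the TPM shares. Deposited bounds of the TPM interval (a signal with no negative values) and posterior spreads were read for precision.

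Shares were summed by transcript class in each library, and given as mean ± SD. Structures came from the GENCODE M21 annotation and sequences from its transcripts. Gene counts were rounded and tested against Poisson sampling at a mean count of 10 or more, with TMM factors from edgeR 4.0.16 in R 4.3.3 over all annotated genes, Benjamini-Hochberg adjustment at 0.05, and DESeq2 1.42.0 size factors as an alternative; the test was checked on simulated counts. Depth was lowest in replicate 1, where 81 members still had 100 or more counts on the leading transcript in this and both other libraries; the smallest such count was 7.99 (Comtd1, replicate 1). Counting limits cover counting error only. The rest used pandas 2.3.3 with numpy 2.4.6 under Python 3.11.15, and matplotlib 3.10.9 for plots.

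The members and lists were chosen with earlier results of these data known. Genes to name were set by rule: members in a list (there were 0), the 10 highest by share and by level, the 3 on either side of the threshold, and the 5 with the largest dispersion, share range and difference between tables. Other members are named by role and were chosen after their values were seen; a few members are counted but not reported by name here. Alternatives were other thresholds, count shares, the second tables, another denominator, size factors and filters, and leaving out each library.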

Additional observations from a re-analysis of the deposited data

How the results depend on the processing

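The number of members depends on the rule. It was 182 at a share of 20%, 58 at 40%, 64 at a level of 20 TPM, and 147 at 5 TPM. Shares by expected counts gave 45 genes, of which 40 were members, and complete introns alone, an alternative chosen after seeing the data, gave 17. The second tables gave 110 genes, 72 of them members, and protein-coding plus retained_intron transcripts as the denominator gave 121. Leaving out each replicate in turn gave 115 to 130 genes, fewest without replicate 2. The median share of the 104 members was 27.5% by counts, 45.7% in the second tables, and 46.9% to 49.4% with a replicate left out, lowest without replicate 2. Between-library variation was called for 8984 genes, and for 4374 to 7564 without a replicate, with 54 to 79 members; the lowest numbers, 4374 and 54, came without replicate 2, the deepest library. DESeq2 size factors gave 8955 genes and 90 members. Other count minimums gave 8056 to 10110 genes. Members lowest in replicate 2 numbered 27 to 36 under the other measures. Of the 35 genes named by rule, the share moved by more than the SD between libraries in 31 by counts and in 19 in the second tables. It did so in none of 105 values with a replicate left out, but that outcome was fixed in advance. Leaving 1 of 3 libraries out cannot move a mean by more than their SD, so it is no sign of stability. The cause of the differences between settings was not tested. No paired analysis was possible because there is 1 group. In 23 members the interval bounds for the leading transcript differ by a factor of 2 or more in a library; the part of depth in this was not tested. Leading transcripts of 18 members overlap exons of a gene on the other strand and those of 5 a gene on the same strand.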
